A study of Mus musculus with 12 samples.

Results

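The genes described here code for the proteins of the cytosolic ribosome. They were taken as the probe sets of the MG_U74Av2 mouse oligonucleotide array whose single annotated symbol starts with Rpl or Rps followed by a digit, or is Rplp0, Rplp1, Rplp2 or Rpsa, with the S6 kinase genes left out. This gave 49 probe sets for 35 of the 8251 genes with a symbol of their own on the array: 16 of the large subunit, 18 of the small subunit and 1, Rplp0, of the stalk of the large subunit. For each of the 10 genes with several probe sets the one of highest mean over the 12 arrays was used. A further 39 probe sets that list a ribosomal protein gene beside other symbols were left out by this rule.

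A ribosome is built from a small subunit, which reads the messenger RNA, and a large subunit, which joins the amino acids. Their proteins are made in near equal numbers, and free ribosomal proteins are degraded. Most of their messengers start with a run of pyrimidines, the 5' terminal oligopyrimidine tract, through which the mTOR pathway sets how much of them is translated, so that their RNA level reports only a part of their control. Muscle cells and proliferating fibroblasts both need large numbers of ribosomes.

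All 12 samples were cells of the 2C5/7 line, which comes from embryonic mouse fibroblasts and has no functional myoD or myf5 gene. The 4 groups of 3 arrays differed in the retrovirus the cells had received, which carried the gene of MyoD, Myf5 or myogenin, or no factor beside hrGFP. MyoD, Myf5 and myogenin are transcription factors of skeletal muscle formation, and hrGFP is a green fluorescent protein. The factor was driven by the viral LTR promoter, and hrGFP was translated from an IRES of the same messenger, so hrGFP was present in every group. Infected cells had been sorted by fluorescence without cloning to a stated purity of 75 to 85%, so each group still held cells without the vector, and grown adherent in DMEM with 10% fetal calf serum. The labels call myogenin and hrGFP controls. The replicate numbers are those of the array titles, 3, 4 and 5 for MyoD, Myf5 and hrGFP and 2, 3 and 6 for myogenin, and the sources used here do not say whether replicates were separate cultures, so p-values measure a spread that may be technical.

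Median deposited signals of the arrays lay between 16.2 and 35.9, and precision is limited by how few arrays there are. A level below is log2(signal + 6.3) after quantile normalization, and a difference is one of group means of that level, ± the standard error of limma with n = 3 arrays against 3. The pseudocount of 6.3 understates differences of dim probe sets. A probe set was tested if its signal was above 15 in at least 3 arrays, and called at a Benjamini-Hochberg adjusted p under 0.05 over the 8485 probe sets tested.

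MyoD (5) and hrGFP (5) stood apart from the other 10 arrays. The ratio of the 3' to the 5' control probe set was 25.7 for actin and 32.4 for Gapdh on MyoD 5, and 37.6 and 33.0 on hrGFP 5. On the other arrays the actin ratio lay between 0.97 and 1.11 and the Gapdh ratio between 0.79 and 1.03. Results are given with and without both arrays. Chip lots formed 3 batches: numbers 3 and 4 of MyoD, Myf5 and hrGFP, number 5 of these groups, and all 3 arrays of myogenin. So myogenin and its batch cannot be told apart. Of the fibroblast markers, 15 of 15 measured passed the filter, against 3 of 7 macrophage and leukocyte, 1 of 6 endothelial and 2 of 6 epithelial ones. Of neural markers 3 of 6 passed, of adipocyte ones 2 of 3 and of erythroid ones 1 of 2. The deposited signals of the macrophage and leukocyte markers summed to between 277.6 and 299.5 in the myogenin group and 163.4 and 239.8 in the hrGFP group. They summed to between 136.1 and 187.7 in the MyoD group and 143.3 and 195.4 in the Myf5 group. The deposited signals of 11 skeletal muscle markers summed to between 94.9 and 187 in the hrGFP group, 189 and 561 in the Myf5 group, 430 and 1232 in the myogenin group, and 2667 and 3560 in the MyoD group. The part of this difference in the ribosomal values was not tested.

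The sequences around the annotated gene starts were searched for the pyrimidine tract that these messengers are known for, which a minority of the windows held. The windows below hold 15 bases before and 15 bases from the annotated start, from RefSeq on GRCm38.p6, 5′ to 3′ on the strand of the gene, for 6 genes whose levels with myogenin are described further on. Capitals mark 5 short words on the strand of the gene: CTTTT, the word CTTTC, the word CTTCC, the word CTCTT and the word CCTTT. Matches on the other strand were counted but are not marked.
Rps10, chr17:27635230-27635259, minus strand: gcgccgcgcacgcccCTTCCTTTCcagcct
Rps19, chr7:24884577-24884606, plus strand: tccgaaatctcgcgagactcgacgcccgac
Rpl10a, chr17:28328456-28328485, plus strand: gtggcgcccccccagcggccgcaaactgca
Rpl13a, chr7:45128731-45128760, minus strand: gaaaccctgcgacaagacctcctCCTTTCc
Rps24, chr14:24490663-24490692, plus strand: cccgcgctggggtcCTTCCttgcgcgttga
Rps27, chr3:90213634-90213663, minus strand: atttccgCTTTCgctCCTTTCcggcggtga
In Rps10 the marked letters began at the annotated start itself, whereas the windows of Rps19 and Rpl10a held none of these words. Promoters were found for 28 of the 35 genes, 37 in all, and 10 of the 37 (27.0%) held a word in this window on the strand of the gene, against 16.4% of the 32851 promoters of the whole table, noncoding genes included. On the other strand the shares were 10.8% and 17.2%. Annotated starts can lie away from those used in these cells, so a window without the words says nothing about the messenger. In the whole 300-base promoters, CCGGAAG, the core letters of the sites of ETS family factors, was present on either strand in 32.4% of the ribosomal protein promoters and in 8.9% of all. AAGATGGC, a core of YY1 sites, was present in 18.9% and 2.7%. The reverse of CCGGAAG contains CTTCC, so the first and this search overlap. Each match is a match of letters only.

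Of the 35 genes, 28 passed the filter. The other 7 were Rpl32, Rpl35a, Rpl39, Rps14, Rps15, Rps20 and Rps27l, whose deposited signals lay between 1.03 and 17.5 over all arrays. They make up 20% of the genes, each taken by its brightest probe set. Of all genes with a symbol of their own, 6277 of 8251 had a probe set that passed. Counted by probe set, with dim further ones of a gene included, 31.7% did not pass. Rpl39, a small protein of the exit tunnel, had 1.03 to 9.42, Rps14 2.51 to 13.3, and Rps27l, a paralog of Rps27, 2.75 to 17.5. These values are near the dim end of the array and give no level for the gene. Deposited signals of the 28 tested genes reached from 3.68 for Rpl38 to 10130 for Rpl41. Rpl41, which codes for a very short basic peptide, had the highest signal of all probe sets on each of the 12 arrays, from 6678 to 10130, so quantile normalization gave it the same level on every array and its difference of 0 carries no information.

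**Figure D1:**
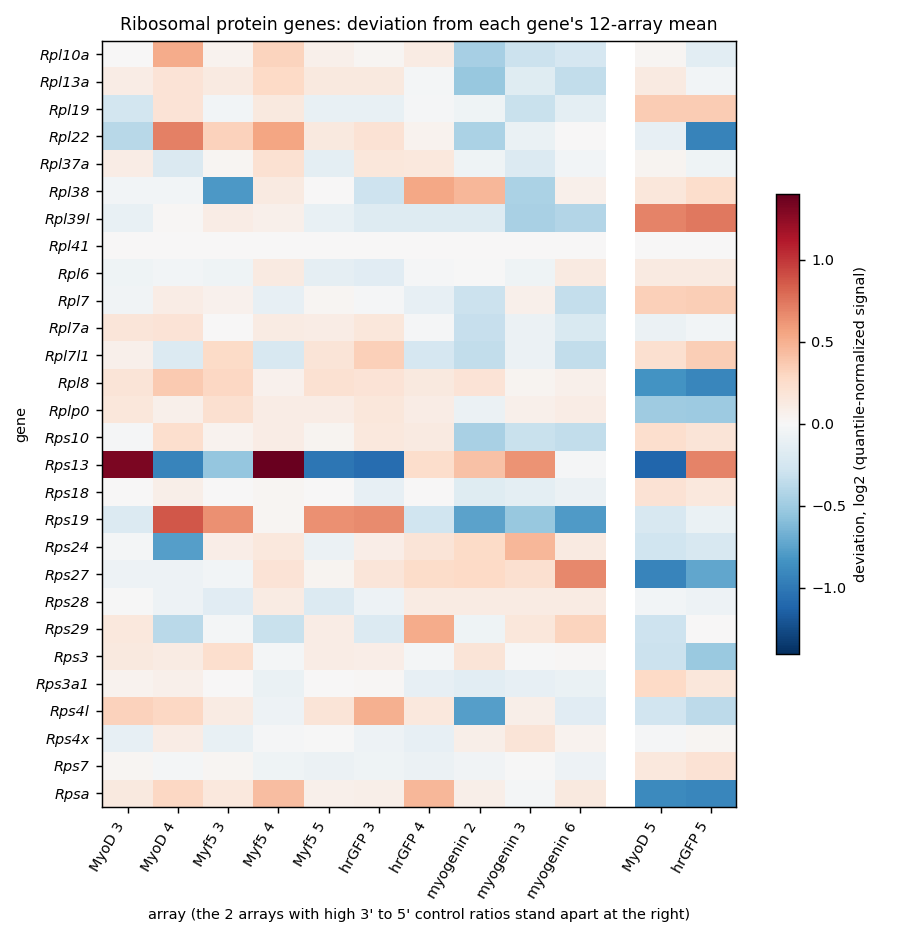
Deviation of each tested ribosomal protein gene from its own mean over 12 arrays, in log2 units of quantile-normalized signal (colour), for each array (columns, MyoD 5 and hrGFP 5 set apart at the right). The myogenin columns are below the mean for Rps10, Rps19, Rpl10a and Rpl13a, Rpl8 and Rpsa are lowest on the pair at the right, and Rpl41 is blank because normalization fixes it.

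The comparison of MyoD with hrGFP asked what MyoD changes in cells without their own copy. None of the 28 tested ribosomal protein genes was called by limma, with adjusted p from 0.9998 up, against 0.412% of all probe sets called. At an unadjusted p under 0.05 there were also 0, against 3.55% of all. In 0 of them did the arrays of the groups not overlap, against 5.28% of all. The median difference was 0.03 over the 28 genes and -0.01 over all probe sets, with 17 genes higher and 10 lower. The differences ran from -0.37 for Rps24 to 0.29 for Rpl22.

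The intervals of these differences were narrow for most of the genes. The half-width of the 95% interval had a median of 0.38 over the 28 genes and 0.72 over all probe sets tested. Most of the 28 genes were far brighter than the median probe set, so these medians compare probe sets of unlike signal. In 26 of 28 the whole interval lay within 1 log2 unit, a 2-fold change either way, and in 16 of 28 within 1.5-fold. Both counts include Rpl41, whose interval is set by normalization. The stalk protein Rplp0, which anchors the proteins that recruit elongation factors, had levels of 12.61, 12.52 and 11.96 with MyoD and of 12.61, 12.56 and 11.95 with hrGFP. Each group held 2 high arrays and its number 5 as the low one, and the groups overlapped. The difference was -0.01 ± 0.19, with an interval of -0.42 to 0.41 (limma, adjusted p = 1). Rps4x, the X-linked form of a small subunit protein, differed by 0.04 ± 0.11 with an interval of -0.19 to 0.27, and Rps7 by 0.03 ± 0.12 with an interval of -0.24 to 0.29. The widest interval was that of Rps13, -1.75 to 1.36. Its levels were 6.60, 4.37 and 4.17 with MyoD and 4.22, 5.53 and 5.98 with hrGFP, from a dim r-type probe set, and neither group was uniform.

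Rps24, a small subunit protein whose human gene is mutated in some families with Diamond-Blackfan anemia, had the lowest unadjusted p of this comparison. Its levels were 12.00, 11.26 and 11.74 with MyoD and 12.12, 12.21 and 11.80 with hrGFP, so that MyoD 3 lay above hrGFP 5 and the groups overlapped. The difference was -0.37 ± 0.18 (limma, adjusted p = 1). The probe set used is of the r type. A second, dimmer probe set of Rps24 gave 0.87 (adjusted p = 0.77), the opposite direction. Whether the replicate numbers pair the samples is not known. Taken by number, MyoD minus hrGFP was -0.12, -0.95 and -0.06 for Rps24, all lower. Limma with the number as a block gave an adjusted p of 0.9995. All 3 numbers went 1 way in 5 of the 28 genes, Rps24 and Rps27 lower and Rps18, Rps3 and Rps3a1 higher, against 28.3% of all probe sets. Rps29 differed by -0.29 ± 0.25 and Rps27 by -0.26 ± 0.31, neither called. Rpl22, which in the mouse is needed for T cell development, was the gene of the highest difference. Its levels were 5.23, 6.32 and 5.50 with MyoD and 5.82, 5.67 and 4.69 with hrGFP, a difference of 0.29 ± 0.35. Without MyoD 5 and hrGFP 5 it was 0.03. The arrays overlapped, and its second probe set differed by 0.77 without being called (adjusted p = 1).

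The comparison of Myf5 with hrGFP called 0 of 28 genes with limma, against 0.0118% of all probe sets, and at an unadjusted p under 0.05 again 0, against 3.01%. The arrays did not overlap in 1 gene, Rps10, against 8.66% of all probe sets. With Myf5 the levels of Rps10 were 11.70, 11.76 and 11.69, and with hrGFP 11.80, 11.78 and 11.84. The Myf5 arrays were all lower, but by -0.09 ± 0.11 only (adjusted p = 0.973). By replicate number all 3 differences went 1 way in 4 genes, Rpl10a and Rpl22 higher and Rpl38 and Rps10 lower, against 26.5% of all probe sets. The median difference was 0.00 over the 28 genes and -0.03 over all probe sets, with 13 genes higher and 14 lower. The highest differences were those of Rpl22, 0.56 ± 0.35, Rpl8, 0.38 ± 0.32, and Rps19, 0.34 ± 0.32. The lowest were those of Rpl38, -0.39 ± 0.35, Rps29, -0.19 ± 0.25, and Rpl39l, -0.10 ± 0.29. Several of these values rested on hrGFP 5, which had 4.69 for Rpl22 against 5.82 and 5.67 on hrGFP 3 and 4, and 10.60 for Rpl8 against 11.70 and 11.64. Without MyoD 5 and hrGFP 5 the difference was 0.20 for Rpl22, 0.02 for Rpl8, 0.25 for Rps19 and 0.20 for Rpl39l, which turned, and it was -0.35 for Rpl38 and -0.23 for Rps29. Rpl38 is known in the mouse for its role in the translation of Hox messengers, and Rpl39l is a paralog of Rpl39 most abundant in testis. For 22 of 28 genes, Rpl41 included, the interval lay within 1 log2 unit.

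MyoD and Myf5 were also compared directly, which is the test of whether their differences from hrGFP differ. Of the 28 genes 0 were called with limma, against 0.224% of all probe sets, and 1 gene, Rps24, had an unadjusted p under 0.05, against 3.71%. Rps24 was lower with MyoD by -0.41 ± 0.18 (adjusted p = 0.937). Its second, dimmer probe set gave 0.17 (limma, adjusted p = 0.945), the opposite direction. The arrays did not overlap in 2 genes, against 9.76% of all probe sets. Rps27 was lower on all MyoD arrays, at 7.05, 7.05 and 6.20 against 7.09, 7.32 and 7.16, a difference of -0.42 ± 0.31, of which MyoD 5 made the largest part. Without MyoD 5 and hrGFP 5 it was -0.13. Rps3a1 was higher on all MyoD arrays, by 0.16 ± 0.11. The median difference was 0.01, beside 0.02 over all probe sets.

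**Figure D2:**
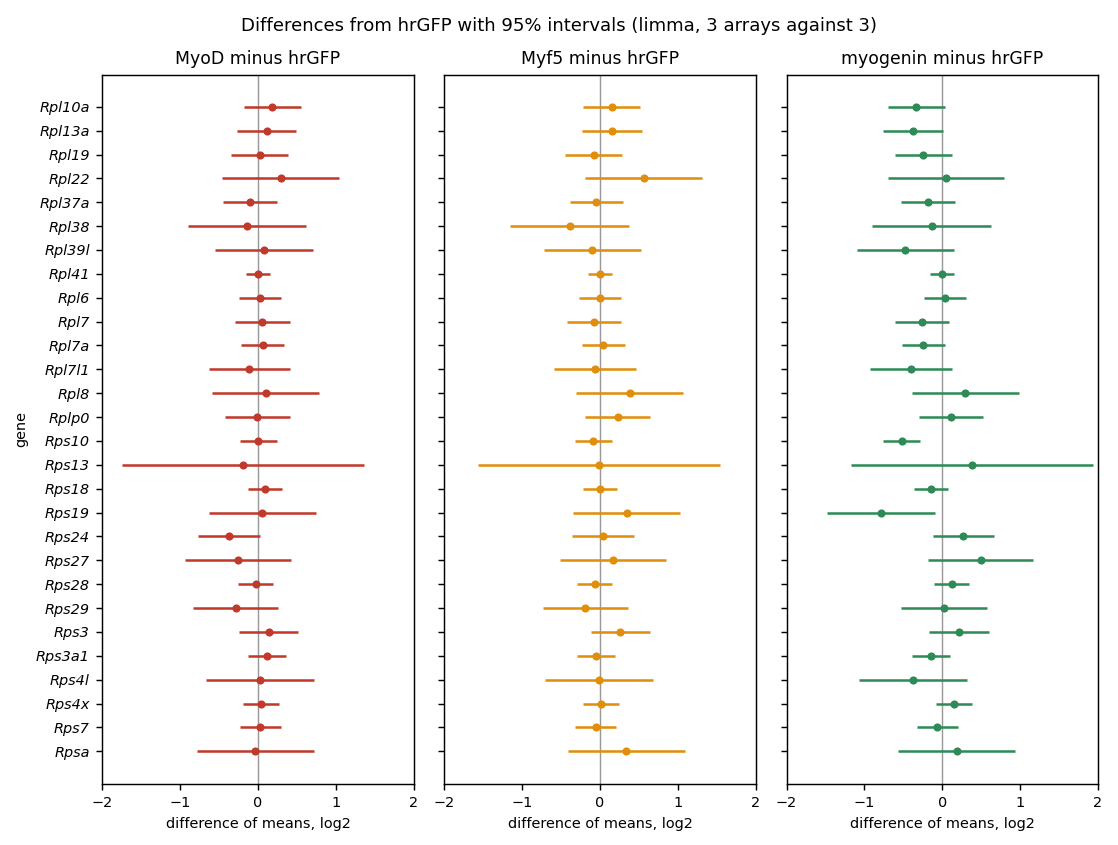
Difference of group means from hrGFP (log2, horizontal axis) for each of the 28 tested ribosomal protein genes, with 95% intervals from limma, for MyoD, Myf5 and myogenin, 3 arrays against 3. All intervals of the MyoD and Myf5 panels include 0, those of Rps10 and Rps19 in the myogenin panel do not, and the interval of Rpl41 is set by normalization alone.

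With myogenin the differences from hrGFP were larger in size than with MyoD or Myf5, both in the ribosomal protein genes, where the median size was 0.231 against 0.0817 and 0.0809, and over all probe sets, where it was 0.332 against 0.187 and 0.231. Limma called 0 of 28 for myogenin minus hrGFP, beside 0.13% of all probe sets. An unadjusted p under 0.05 was reached by 2 genes, Rps10 and Rps19, against 11.5% of all probe sets. The groups did not overlap in 7 genes, 6 of them lower with myogenin and 1 higher, against 18.1% of all probe sets. The median difference was -0.10 over the 28 genes and -0.01 over all probe sets, with 12 genes higher and 15 lower. The 13 tested genes of the large subunit had a median of -0.24, with 3 higher, and the 14 of the small subunit a median of 0.07, with 8 higher. That difference between the subunits was not tested.

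Rps10 and Rps19 are proteins of the small subunit, and mutations of either human gene cause Diamond-Blackfan anemia. The levels of Rps10 with myogenin were 11.21, 11.34 and 11.32. All 3 were below the 9 other arrays, whose lowest was MyoD 3 at 11.64. The difference from hrGFP was -0.52 ± 0.11 with an interval of -0.76 to -0.28 (limma, adjusted p = 0.0983). Rps19 had levels of 9.41, 9.62 and 9.36 with myogenin and of 10.82, 9.87 and 10.06 with hrGFP. The myogenin arrays were again all lower, and hrGFP 3 was far above its 2 replicates. The difference was -0.78 ± 0.32 with an interval of -1.47 to -0.09 (limma, adjusted p = 0.373).

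Rpl13a, a large subunit protein that in human monocytes also leaves the ribosome to block translation of inflammatory messengers, had levels of 7.85, 8.22 and 8.03 with myogenin and of 8.52, 8.36 and 8.35 with hrGFP. The groups did not overlap, and the difference was -0.38 ± 0.18 (limma, adjusted p = 0.441). Rpl10a, the protein of the L1 stalk of the large subunit, had 10.20, 10.36 and 10.43 with myogenin and 10.69, 10.78 and 10.52 with hrGFP. The difference was -0.33 ± 0.17 (adjusted p = 0.469), and its second probe set gave -0.65 (adjusted p = 0.356), the same direction. Rpl39l was lower by -0.47 ± 0.29 and Rpl7a by -0.24 ± 0.13, and Rpl7l1, a paralog of Rpl7, differed by -0.40 ± 0.24 with arrays that overlapped. Rpl39l was high on hrGFP 5, at 8.17 against 7.25 and 7.25 on hrGFP 3 and 4, and differed by -0.16 without MyoD 5 and hrGFP 5. Its levels with myogenin were 7.25, 6.98 and 7.03, so these groups were only just apart.

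In the other direction, Rps4x was the gene with all myogenin arrays above hrGFP, by 0.16 ± 0.11 (adjusted p = 0.569), a direction that turned with median centring, with scaling to a common trimmed mean and without normalization. Rps27 had the largest positive difference, 0.49 ± 0.31, with levels of 7.41, 7.35 and 7.80 against 7.30, 7.38 and 6.40. hrGFP 4 lay above the lowest myogenin array, so these groups overlapped. Rps13 differed by 0.38 ± 0.71 and Rpl8, which lies near the site of peptide bond formation, by 0.30 ± 0.32. Rpl8 and Rps27 were low on hrGFP 5, which enters the hrGFP mean. Without MyoD 5 and hrGFP 5, Rps27 differed by 0.17, Rps13 by 0.74 and Rpl8 by -0.06, so that Rpl8 turned.

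**Figure D3:**
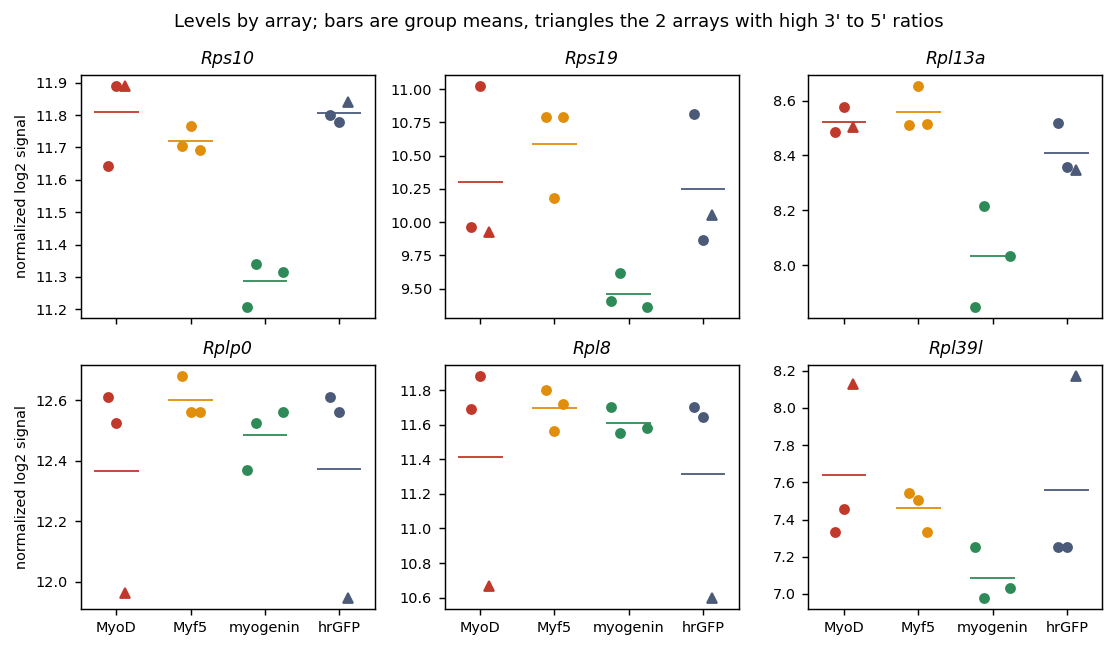
Normalized log2 level (vertical axis, its range set for each gene) of 6 ribosomal protein genes on each array, by group, with bars for group means and triangles for MyoD 5 and hrGFP 5. Rps10, Rps19 and Rpl13a are lowest on the 3 myogenin arrays, Rplp0 and Rpl8 are low and Rpl39l is high on the arrays drawn as triangles.

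The comparisons of MyoD and Myf5 with myogenin use the same myogenin arrays and are not separate evidence. Between MyoD and myogenin limma called 0 of 28, against 0.412% of all probe sets. An unadjusted p under 0.05 was found for 9 genes, against 13.8%, and the groups did not overlap in 10, against 22.4%. Rps19 was higher with MyoD by 0.84 ± 0.32 (adjusted p = 0.288), Rps10 by 0.52 ± 0.11 (adjusted p = 0.0799), Rpl10a by 0.52 ± 0.17 and Rpl13a by 0.49 ± 0.18. Rpl39l was higher with MyoD by 0.55 ± 0.29, and by 0.29 without MyoD 5 and hrGFP 5. MyoD minus myogenin was -0.75 ± 0.31 for Rps27 and -0.64 ± 0.18 for Rps24, with all MyoD arrays below the myogenin arrays, although the second probe set of Rps24 gave 0.41. Without MyoD 5 and hrGFP 5 these differences were -0.45 and -0.68. The median difference was 0.09, beside 0.00 over all probe sets.

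Between Myf5 and myogenin limma called 0 of 28, against 0.0354% of all probe sets. An unadjusted p under 0.05 was found for 5 genes, all higher with Myf5, against 9.18%, and the groups did not overlap in 10, against 26.4%. With Myf5 the levels of Rps19 were 10.79, 10.18 and 10.79. All were above the myogenin arrays, and the difference, 1.13 ± 0.32, was the largest of the 28 genes in any of the 6 comparisons (adjusted p = 0.328). Rpl13a was higher with Myf5 by 0.53 ± 0.18, Rpl22 by 0.51 ± 0.35, Rpl10a by 0.48 ± 0.17, Rps10 by 0.43 ± 0.11 and Rpl7a by 0.28 ± 0.13. For Rpl22 the adjusted p of limma was 0.702. Its second, dimmer probe set gave -0.22 (limma, adjusted p = 0.948), the opposite direction. The lowest differences were those of Rps13, -0.40 ± 0.71, Rps27, -0.33 ± 0.31, and Rpl38, -0.25 ± 0.35. The median difference was 0.12, beside 0.01 over all probe sets.

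All 3 myogenin arrays were lower than all 9 others in 5 of the 28 genes, Rpl10a, Rpl13a, Rpl39l, Rps10 and Rps19, against 3.65% of all probe sets tested. They were higher than all others in 0, against 3.15%. For Rpl39l the gap was very small, at 7.2522 on myogenin 2 against 7.2532 on hrGFP 3. Relative to the median of all probe sets, the direction of these 5 genes against each group was the same under all 4 scalings tried. The quantile normalization by which they were picked is among these scalings. Other genes, such as Rpl7, Rpl19 and Rpl7a, also kept their direction, while Rpl6 and Rps4x did not. With arrays weighted by their fit (limma arrayWeights), 2 genes were called between myogenin and hrGFP, Rps10 with -0.52 (adjusted p = 0.00754) and Rps19 with -1.18 (adjusted p = 0.0157), against 5.39% of all probe sets. Between MyoD and myogenin, 3 were called, Rpl10a, Rps10 and Rps24, against 1.93%. The second probe set of Rps24 had the opposite direction in the fit without weights. Between Myf5 and myogenin 6 were called, against 16.5%: Rpl10a, Rpl13a, Rpl7a, Rps10 and Rps19 were higher with Myf5 and Rps28 was lower. The direction of Rps28 was not stable: its 3 myogenin arrays had the same level of 12.68, set by their rank in normalization, a second probe set gave 0.09, and relative to all probe sets the difference ranged from -0.21 to 0.00 over the scalings. Weighting gave MyoD 5 and hrGFP 5 the smallest weights, 0.222 and 0.193, and Myf5 3 the largest, 3.15.

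The choice of scaling set how far the group as a whole lay below the other genes with myogenin. Taken relative to the median of all probe sets, the median of the ribosomal protein genes against hrGFP was -0.09 after quantile normalization, -0.32 with no normalization, -0.32 with median centring and -0.32 with scaling to a common trimmed mean. For MyoD minus myogenin it was 0.08 after quantile normalization and 0.29 to 0.31 under the other scalings, and for Myf5 minus myogenin 0.11 and 0.29 to 0.30. With no normalization the median of all probe sets was itself 0.17 for myogenin minus hrGFP. For MyoD and Myf5 against hrGFP the same relative medians stayed between -0.01 and 0.04 under all of them.

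Leaving MyoD 5 and hrGFP 5 out of the fit reduced the spread of these genes. The residual standard deviation of the 28 genes had a median of 0.220 with the pair and 0.134 without it, beside 0.411 and 0.294 for all probe sets. As with the intervals, this sets mostly bright genes beside mostly dimmer probe sets. Without the pair limma called 0 of 28 in each comparison. The background was then 0.542% of all probe sets for MyoD minus hrGFP, 0.0236% for Myf5 minus hrGFP and 0.566% for myogenin minus hrGFP. It was 0.342% for MyoD minus Myf5, 0.625% for MyoD minus myogenin and 0.519% for Myf5 minus myogenin. At an unadjusted p under 0.05 there was 1 gene for MyoD minus hrGFP (all probe sets 7.38%), 0 for Myf5 minus hrGFP (4.77%), 5 for myogenin minus hrGFP (12.5%), 1 for MyoD minus Myf5 (5.2%), 7 for MyoD minus myogenin (15.5%) and 6 for Myf5 minus myogenin (17.9%). Rps24 was the 1 gene both times, at -0.53 against hrGFP and -0.45 against Myf5, both from its r-type probe set. Rps10 was then -0.49 ± 0.11 for myogenin minus hrGFP (adjusted p = 0.0765) and Rps19 -0.90 ± 0.33 (adjusted p = 0.278).

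On the arrays with high 3' to 5' ratios a few ribosomal protein genes stood far from their levels on the other arrays of their group. Rpl8 was -1.12 on MyoD 5 and -1.07 on hrGFP 5 relative to the mean of numbers 3 and 4 of the same group. Rpsa, a small subunit protein also known as the laminin receptor, was -1.11 and -1.19, and Rps27 was -0.85 and -0.94. Rplp0 followed with -0.61 and -0.64 and Rps4l, a relative of Rps4x, with -0.58 and -0.69, while Rpl39l was the 1 gene above 0.5 on both, with 0.73 and 0.92. Myf5 5 shares its chip lot with this pair but has ratios of 1.11 and 0.95. On it Rpl8 differed from numbers 3 and 4 by 0.04, Rpsa by -0.22 and Rps27 by -0.04. Rplp0 differed by -0.06, Rps4l by 0.16 and Rpl39l by -0.19. The deposited experiment information gives Myf5 5 and hrGFP 5 the same sample code, and both were used as labelled.

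In all, 6 of the 28 genes (21.4%) were beyond 0.5 in the same direction on both arrays, 5 down and 1 up, against 40.9% of all probe sets, and 1 gene, Rps13, was beyond it on Myf5 5 with -1.43. Rps13 was -1.31 on MyoD 5 and 1.11 on hrGFP 5, so it had no common direction. Leaving Rpl41 aside, 23 of 27 genes had the same sign on both arrays. Over the 28 genes the shifts of MyoD 5 and hrGFP 5 correlated with Pearson's r = 0.542 and Spearman's rho = 0.73, and those of MyoD 5 and Myf5 5 with r = 0.347 and those of hrGFP 5 and Myf5 5 with r = -0.305. Over all probe sets tested r was 0.827 for MyoD 5 and hrGFP 5 and 0.108 for MyoD 5 and Myf5 5. These are correlations across genes, which are not independent replicates and share the probe design, and Rps13 is far from the other points in each. The median size of the shift was 0.256 on MyoD 5, 0.279 on hrGFP 5 and 0.131 on Myf5 5 for the ribosomal protein genes, beside 0.562, 0.607 and 0.216 for all probe sets. Here too the probe sets compared are of unlike signal.

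**Figure D4:**
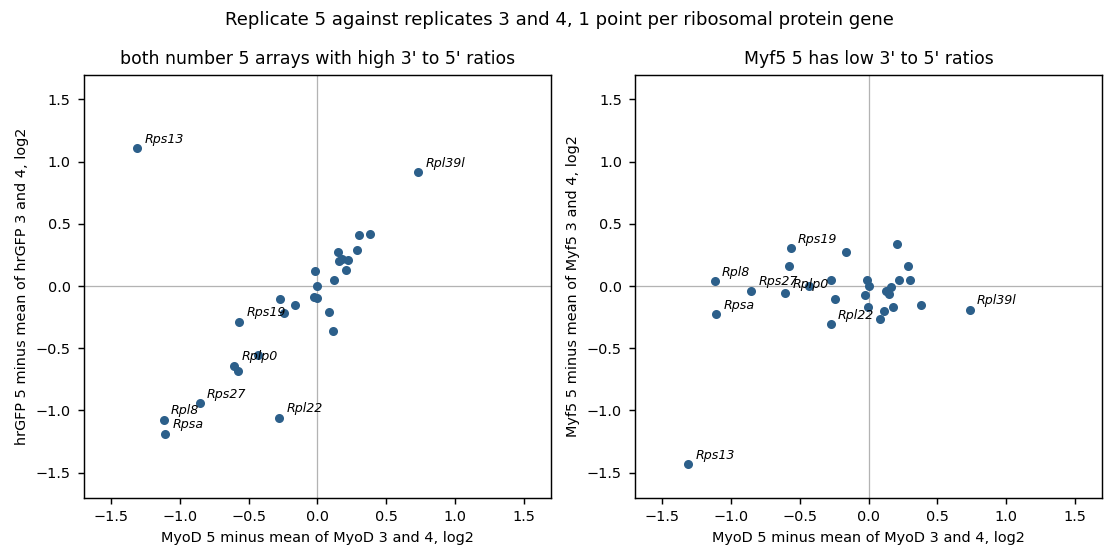
Level of replicate 5 minus the mean of replicates 3 and 4 (log2), 1 point per tested ribosomal protein gene, for MyoD (horizontal axes) against hrGFP (left) and Myf5 (right). On the left Rpl8, Rpsa, Rps27 and Rplp0 lie low on both axes and Rpl39l high on both, whereas on the right Myf5 5 stays within 0.5 of 0 for all genes but Rps13.

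The genes around the ribosome were read in the same fits. Among 59 tested genes of the mitochondrial ribosome, 0 rose or fell with limma in any of the 6 comparisons. Their medians were 0.07, -0.05 and -0.23 for MyoD, Myf5 and myogenin against hrGFP, with 0, 0 and 9 genes at an unadjusted p under 0.05, beside 3.55%, 3.01% and 11.5% of all probe sets. Mrpl42 had the largest negative difference with myogenin, -1.02 ± 0.38 (adjusted p = 0.341). The mitochondrial genes were higher than with myogenin in 49 of 59 with MyoD and in 46 of 59 with Myf5, where the cytosolic genes were higher in 15 and 19 of 28 and all probe sets in 50.1% and 51.7%. Whether these shares differ was not tested.

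None of the 54 tested genes of ribosome biogenesis, the 49 translation factor genes, the 14 genes of other messengers with a pyrimidine tract, the 2 S6 kinase genes or the 12 genes of growth control was called by limma in any comparison. For myogenin minus hrGFP, 7, 5, 2, 0 and 0 of them had an unadjusted p under 0.05, and for MyoD minus hrGFP 0, 0, 0, 0 and 1, beside 11.5% and 3.55% of all probe sets. Their medians for myogenin minus hrGFP were -0.10, -0.10, -0.11, 0.21 and 0.06. The translation factor genes were chosen by symbol. Some of them, such as Eif2ak1, Eef2k and Eif4ebp1, code for kinases or inhibitors of the factors. Rrp12, which helps to export ribosomal subunits from the nucleus, differed by 1.27 ± 0.47 with myogenin and 1.31 ± 0.47 with Myf5 (adjusted p = 0.342 and 0.973). Eif3e, a subunit of initiation factor eIF3, was -1.02 ± 0.33 with myogenin (adjusted p = 0.289). Cdkn1a, the cell cycle inhibitor p21, was 1.09 ± 0.32 with MyoD (adjusted p = 0.517), and Myc, which drives the transcription of ribosomal genes, was -0.49 ± 0.36 with myogenin (adjusted p = 0.588).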

How the data were processed

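RNA of 12 samples was measured on MG_U74Av2 arrays. The authors deposited an intensity signal for each probe set on each array, computed by MAS5 according to the submitters' processing notes, of which the version, scaling and detection calls were not given in the sources used here. In all, the deposited table held 12488 probe sets, 66 of them array controls. The deposited experiment information files hold other information, and the fits used them only to find array batches by chip lot.

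Signals were raised by 6.3, the 25th percentile, log2-transformed and quantile-normalized with limma 3.58.1 in R 4.3.3. The filter asked for 3 of 12 arrays over a signal of 15, the 40th percentile. All 12 arrays entered 1 model of 4 group means (lmFit and eBayes with a variance trend, 8 residual degrees of freedom), and p-values were adjusted by Benjamini-Hochberg over 8485 probe sets in each of the 6 comparisons. The script was tested on simulated data. Symbols came from the array's probe-to-gene table, in which 10833 probe sets had 1 symbol, 396 several and 1193 none listed, and all 35 members matched RefSeq by gene number. Promoters came from RefSeq on GRCm38.p6.

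The members and the gene lists were chosen with earlier results of these data known. Genes were named by a rule: called members, the 3 largest differences in each direction per comparison, a list of members of known interest, and up to 4 genes of largest difference per other list. Not all of the 3 largest differences are printed for each comparison. Other members are named where groups did not overlap, where array weights called them, where they moved on MyoD 5 and hrGFP 5, or as examples of narrow intervals, and were chosen after their values were seen. Same-numbered arrays of MyoD, Myf5 and hrGFP had correlations of their deviations of 0.40 to 0.83 for MyoD with hrGFP, 0.11 to 0.33 for Myf5 with hrGFP and -0.01 to 0.11 for MyoD with Myf5. Deviations were taken from the mean of each group, so the shared shift of MyoD 5 and hrGFP 5 also enters numbers 3 and 4. The correlations therefore cannot show whether the numbers pair the samples. Differences by number are given as a description, for the first 2 of these comparisons. Alternatives were other normalizations, pseudocounts, filters, blocks, array weights, probe set choices and leaving out arrays.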

Additional observations from a re-analysis of the deposited data

How the results depend on the processing

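The count of called genes stayed at 0 in all 6 comparisons, except with array weights, which called 2 for myogenin minus hrGFP, 3 for MyoD minus myogenin and 6 for Myf5 minus myogenin. The median difference for myogenin minus hrGFP (-0.10) was -0.14 with no normalization, -0.40 with median centring, -0.25 with a common trimmed mean, -0.0603 with a pseudocount of 32, -0.0263 with no filter, -0.14 over plain _at probe sets and -0.0635 with array weights. For MyoD minus myogenin (0.09) it was 0.12, 0.39 and 0.21 under the 3 scalings, 0.15 without MyoD 5 and hrGFP 5, 0.13 over all probe sets of the genes and 0.25 over plain _at probe sets. For Myf5 minus myogenin (0.12) it was 0.25, 0.39 and 0.27 under the 3 scalings and 0.0896 with no filter. For Myf5 minus hrGFP it was 0.0653 with no normalization and -0.0602 with median centring, and for MyoD minus Myf5 -0.0848 and 0.0536. The cause was not tested. No call was reversed.

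Leaving out 1 array at a time left 0 called throughout (0 to 0 over 12 fits each). The median then ranged from -0.014 to 0.0314 for MyoD minus hrGFP, from -0.0053 to 0.0262 for Myf5 minus hrGFP, from -0.137 to -0.0425 for myogenin minus hrGFP, from -0.021 to 0.0349 for MyoD minus Myf5, from 0.0635 to 0.144 for MyoD minus myogenin and from 0.091 to 0.142 for Myf5 minus myogenin. With the replicate block, the median was 0.03 for MyoD minus hrGFP, 0.00 for Myf5 minus hrGFP and 0.01 for MyoD minus Myf5, with 0 called in each, so that the block changed no call. No paired analysis was possible because myogenin shares only the number 3 with the other groups, for its 3 comparisons. Dim probe sets keep 7 of the 35 genes untested and also limit tested ones, since Rpl38 was above the filter signal on 3 arrays, Rps4l on 6 and Rps13 on 9.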

Other observations

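The 39 probe sets that list a ribosomal protein gene beside other symbols were outside the rule. Of these 36 were tested, and limma called 0 in any of the 6 comparisons, with 0, 0, 5, 1, 3 and 0 at an unadjusted p under 0.05 for MyoD, Myf5 and myogenin minus hrGFP, MyoD minus Myf5, MyoD minus myogenin and Myf5 minus myogenin. Over all probe sets these shares were 3.55%, 3.01%, 11.5%, 3.71%, 13.8% and 9.18%. Their median difference was 0.02 for MyoD minus hrGFP, -0.01 for Myf5 minus hrGFP and 0.00 for myogenin minus hrGFP. Of the further probe sets of the 35 genes, 8 were tested and 0 called.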
